A study of Arabidopsis thaliana with 21 samples.

Results

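In dark-grown Arabidopsis thaliana seedlings, 94 genes whose annotated symbol is only their locus number were higher after 1 h of red light than in darkness. The same genes were also higher after 18 h. They were chosen by a rule on the measured values from 13356 genes with a named probe set, of which 11799 had only a locus as their symbol. The rule asked for a difference of at least 0.7 on the log2 scale between red light and darkness at 1 h and again at 18 h, and for a log2 level of at least 6 after 1 h of red light. It left out AT5G48490 by name. Because these differences chose the members, the red light values below describe the choice and are given with no test. The gene tables used here give a gene family name, as a synonym, to only 2 of the 94 members. Other kinds of synonym were not counted, and the other 92 are given here by locus.

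Whole seedlings of the Col-0 wild type (WT) or of a pif3 mutant, whose allele the labels do not give, were profiled on 1-colour Affymetrix arrays, 1 sample per array from 5 ug of total RNA. All were plated without sucrose and spent 4 days at 4 °C, after which 3 h of white light started germination and the seedlings grew in darkness at 21 °C for 4 days. Wild-type seedlings were then sampled at once (WT_D0), after a further 1 h (WT_D1) or 18 h (WT_D18) of darkness, or after 1 h (WT_R1) or 18 h (WT_R18) of continuous red light. The mutant was sampled only in darkness, at once (pif3_D0) and after a further 1 h (pif3_D1). Each of the 7 groups holds 3 samples that the labels call biological replicates, 21 arrays in all. Nothing further is said of separate plantings, so the spread between them may be partly technical.

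Red light is sensed by the phytochromes, which move into the nucleus on activation and trigger the removal of the PIF transcription factors. PIFs hold back light-induced genes in darkness, and their loss starts de-etiolation, the change from a pale, elongating seedling to a green one with open cotyledons. PIF3 is a basic helix-loop-helix member of that family and binds the active form of phytochrome. Genes that respond within an hour include transcription factors and clock genes, and genes for the photosynthetic apparatus are induced over the following hours. In whole seedlings a lower signal can mean fewer cells of a type or less RNA per cell, and the arrays do not tell these apart.

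Few of the known genes of red light signalling were measured by a named probe set: 2 of 29 listed entries for phytochrome signalling, 1 of 16 for the clock and 0 of 13 for photoprotection and plastid sigma factors. HYH, a bZIP factor related to HY5, was called higher at both red light times, by 2.40 log2 units (SE 0.18, limma adjusted p = 4e-07) at 1 h and 3.41 (SE 0.18, adjusted p = 1.6e-09) at 18 h. FHL, which helps phytochrome A enter the nucleus, was called lower at both times, with differences of -0.84 (SE 0.13, adjusted p = 0.00055) and -1.71 (SE 0.13, adjusted p = 5e-08). GI, a clock gene, was called higher at 1 h, by 1.58 (SE 0.10, adjusted p = 8.6e-08), and lower at 18 h, with a difference of -0.28 (SE 0.10, adjusted p = 0.047). Of the 3, HYH thus had the course that defines the 94 genes.

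The arrays were first put on a common distribution, and values are intensities in these units. Log2 values were taken after adding an offset of 16, so that differences of dim probe sets are understated. Different probe sets are not compared for their level. The correlation between arrays of 1 group, over all probe sets, was between 0.977 and 0.992. The 25S rRNA control lay at 128 to 466 units in the 3 WT_R1 arrays, at 2650 to 3423 in WT_R18 and at 365 to 4927 in the 9 wild-type dark arrays. It was low in 3 of those dark arrays (WT_D0 replicate 1, WT_D1 replicate 2 and WT_D18 replicate 1, at 624, 689 and 365). The median log2 level of the members was 6.55, 6.56 and 6.59 in these 3 arrays and 6.51 to 6.68 in the other dark wild-type arrays, against 7.81 to 7.86 in WT_R1. Apart from WT_D0, these groups entered the rule, so their medians follow in part from the choice. Whether the 25S signal bears on the red light differences was not tested.

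The median of the 94 differences was 1.06 log2 units at 1 h and 1.74 at 18 h, where the median over all genes was -0.02 and -0.04. The differences ran from 0.70 to 3.24 at 1 h and from 0.73 to 4.82 at 18 h. At 18 h the difference was the greater in 72 members. It was at least 2 in 8 members at 1 h and in 40 at 18 h, and at least 1 at both times in 41. A limma fit over all 22746 probe sets called 2.78% of them higher at 1 h and 14.1% higher at 18 h, and 85 and 93 of the 94 members. These counts follow from the choice and nothing is read from them. WT_R1 lay above WT_D1 in every array for 93 members, AT1G28600 excepted, against 7.93% of all probe sets. WT_R18 lay above WT_D18 in every array for 92, AT5G48540 and AT1G18980 excepted, against 18.7%.

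**Figure D1:**
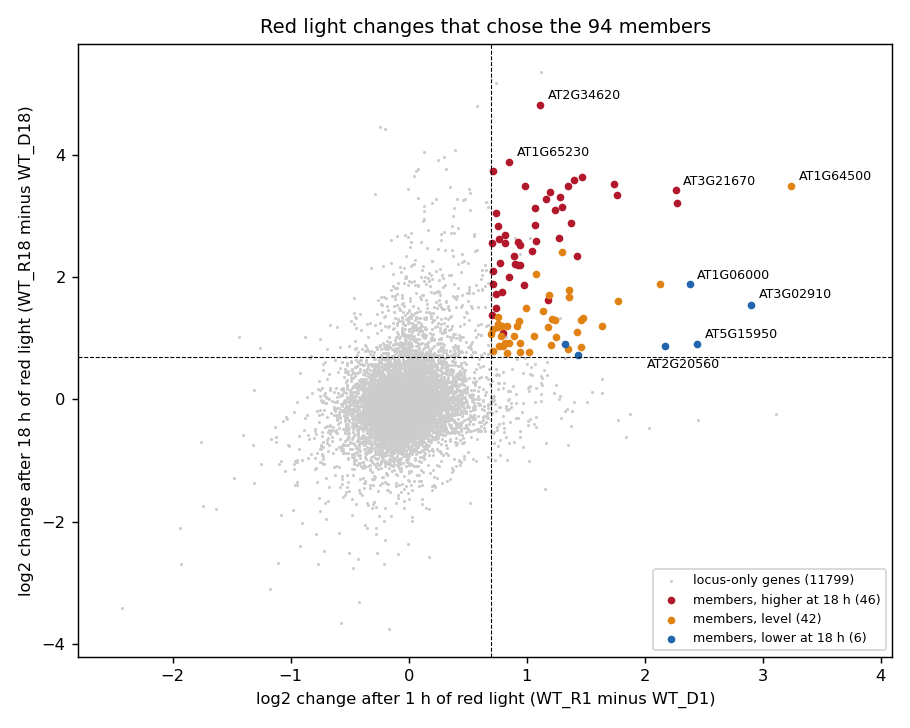
Difference between red light and darkness after 1 h (x axis) and after 18 h (y axis), both in log2 units. Points are 11799 genes whose symbol is only the locus. Dashed lines mark the limit of 0.7; the 94 members are coloured by whether WT_R18 was at least 0.7 above WT_R1 (46), within 0.7 (42) or at least 0.7 below it (6), and the grey points past both lines include the 8 genes under the level limit.

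At 1 h the members nearest to the limit were AT2G41040 (0.70), AT5G41050 (0.71) and AT4G02920 (0.71), and AT5G54300 (0.698), AT1G55960 (0.69) and AT3G04760 (0.69) lay just outside. At 18 h AT1G13670 (0.73), AT1G54740 (0.76) and AT3G16800 (0.77) lay just inside, and AT3G44450 (0.68), AT5G19240 (0.68) and AT4G20860 (0.61) just outside. For the level after 1 h of red light AT1G26220 (6.002), AT1G48100 (6.21) and AT1G22630 (6.23) lay inside, and AT1G26790 (5.76), AT3G22060 (5.71) and AT3G52740 (5.70) outside. The level limit kept out 8 genes that passed both others. When 1 array was left out, 23 members fell under a limit of change for at least 1 of the 12 arrays concerned, and 71 did so for none.

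From 1 h to 18 h of red light the members took 3 courses, taken here as a mean at least 0.7 log2 units higher, within 0.7, or at least 0.7 lower. Of the 94, 46 were higher at 18 h, 42 were level and 6 were lower. WT_R18 lay above WT_R1 in every array for 60 members and below it for 11, against 16.5% and 20.5% of all probe sets. In the first course 44 of 46 had WT_R18 above WT_R1 in every array, and in the last all 6 had it below. Of the 42 level members, 16 had WT_R18 above WT_R1 in every array, 5 had it below and 21 overlapped. The members of the 3 courses had median differences from darkness of 0.96, 1.04 and 2.28 at 1 h, and of 2.63, 1.19 and 0.91 at 18 h. The courses were cut on the same red light values. The counts of separated arrays within each course and the order of these medians therefore follow in part from the grouping.

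**Figure D2:**
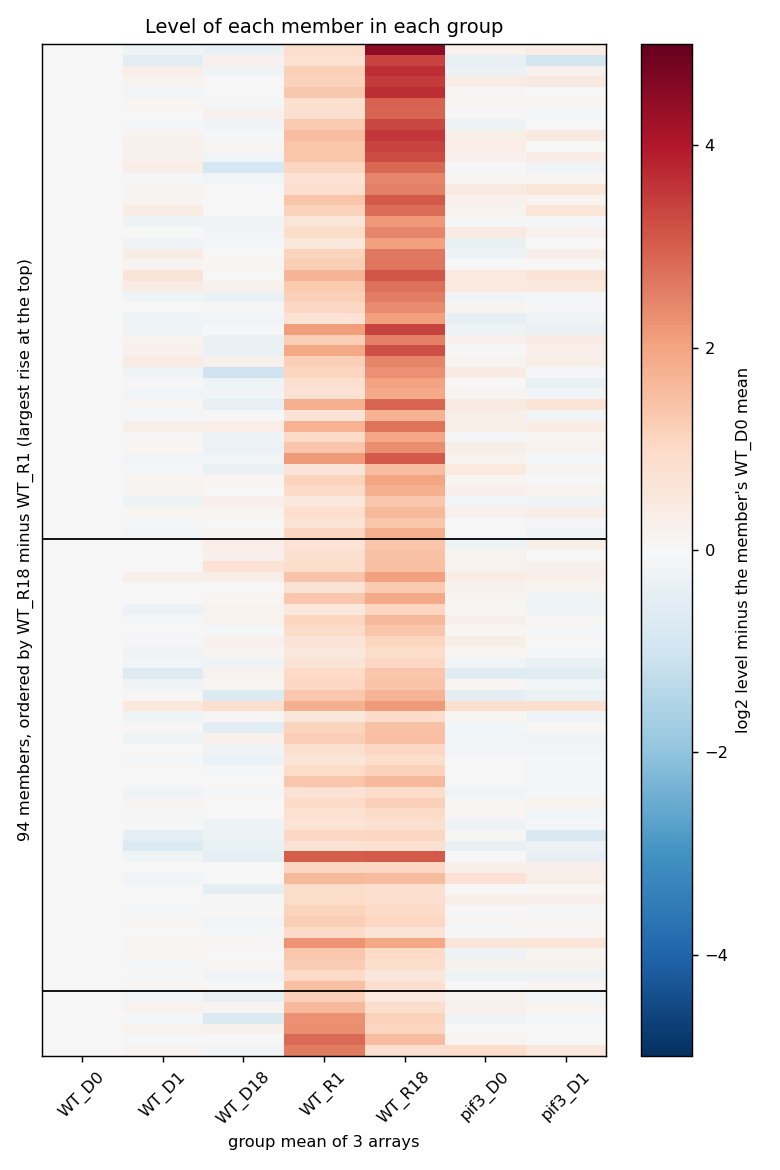
Log2 level of each of the 94 members (rows) in each group (columns, means of 3 arrays), less the member's WT_D0 mean. Rows are ordered by WT_R18 minus WT_R1, and black lines part the 46 members higher at 18 h, the 42 level and the 6 lower. The wild-type dark columns and both pif3 columns stay near white beside the WT_R1 and WT_R18 columns. The colour range is wide, so small differences look pale in every column, also in WT_R1, where they start at 0.53 log2 units.

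The difference at 1 h was greatest in AT1G64500. This gene lay at 45.7, 55.8 and 59.8 units in WT_D1 and at 641, 629 and 658 in WT_R1. After 18 h it lay at 38.9, 43.8 and 47.9 in darkness and at 764, 573 and 639.7 in red light. The log2 differences were 3.24 at 1 h and 3.50 at 18 h, and WT_R18 and WT_R1 overlapped, so that the level reached within an hour was also the level at 18 h (0.03 apart). AT5G47610 kept most of its 1 h difference at 18 h, with 175, 183 and 189 in WT_D1, 869, 824 and 867 in WT_R1, 210.0, 145 and 169 in WT_D18 and 665, 749 and 649 in WT_R18. Its log2 differences were 2.13 and 1.89, and every WT_R18 array was below every WT_R1 array, by a mean of -0.31 log2 units. AT1G13930 lay at 331, 356 and 331 in WT_D1 and at 1211, 1138 and 1236 in WT_R1, then at 372, 364 and 363 and 1228, 1349 and 920.2 in WT_D18 and WT_R18. Its groups in red light overlapped with each other and lay clear of darkness, with log2 differences of 1.77 and 1.61.

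Of the 6 members that were lower at 18 h than at 1 h, 4 were among the 7 greatest differences at 1 h. To fall by 0.7 and still pass the limit at 18 h, a member needs a large difference at 1 h. The lowest in this course was 1.32, so nothing is read from the rank. AT3G02910 lay at 115, 87.8 and 98.8 units in WT_D1, 898, 801 and 857 in WT_R1, 115, 110.2 and 96 in WT_D18 and 397, 398 and 254 in WT_R18. Its difference from darkness was 2.90 at 1 h and 1.55 at 18 h, and WT_R18 was -1.27 log2 units from WT_R1, without overlap. AT5G15950 had the widest descent of the 94, from 622, 439.5 and 460.4 in WT_R1 to 146, 126 and 126 in WT_R18 (log2 -1.80), while WT_D1 held 67.1, 82.6 and 88.2 and WT_D18 66, 57 and 66. The WT_R18 arrays still lay above every wild-type dark array of this gene at 1 h and 18 h, but only just above the highest of WT_D0 (39.1, 66.5 and 122). AT1G06000 went from 363, 276 and 263 to 121, 155 and 102 in red light, beside 43.3, 50.7 and 38.9 in WT_D1 and 18.9, 23.7 and 24 in WT_D18. Its dark level at 18 h was lower than at 1 h, a log2 difference of -0.66, which enters the difference of 1.88 at 18 h.

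The remaining 3 members of that course were AT1G13670, AT2G46420 and AT2G20560. AT1G13670 lay at 45.1, 42.9 and 46.8 in WT_D1, 158, 128 and 161 in WT_R1, 46.5, 45.8 and 40.4 in WT_D18 and 95.2, 72.2 and 84.8 in WT_R18, and AT2G46420 had log2 differences of 1.32 and 0.90. AT2G20560 was near or below 0 in darkness, with 6.58, -6.5 and -4.71 in WT_D1 and 9.12, -6.98 and -1.51 in WT_D18. It reached 60.2, 72.4 and 62.4 in WT_R1 and 19.9, 22 and 12.7 in WT_R18, each array above each dark array. No fold is given against a signal near 0. The log2 difference of 2.17 at 1 h rests on the offset and ran from 0.96 to 5.07 over the offsets and scalings tried.

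**Figure D3:**
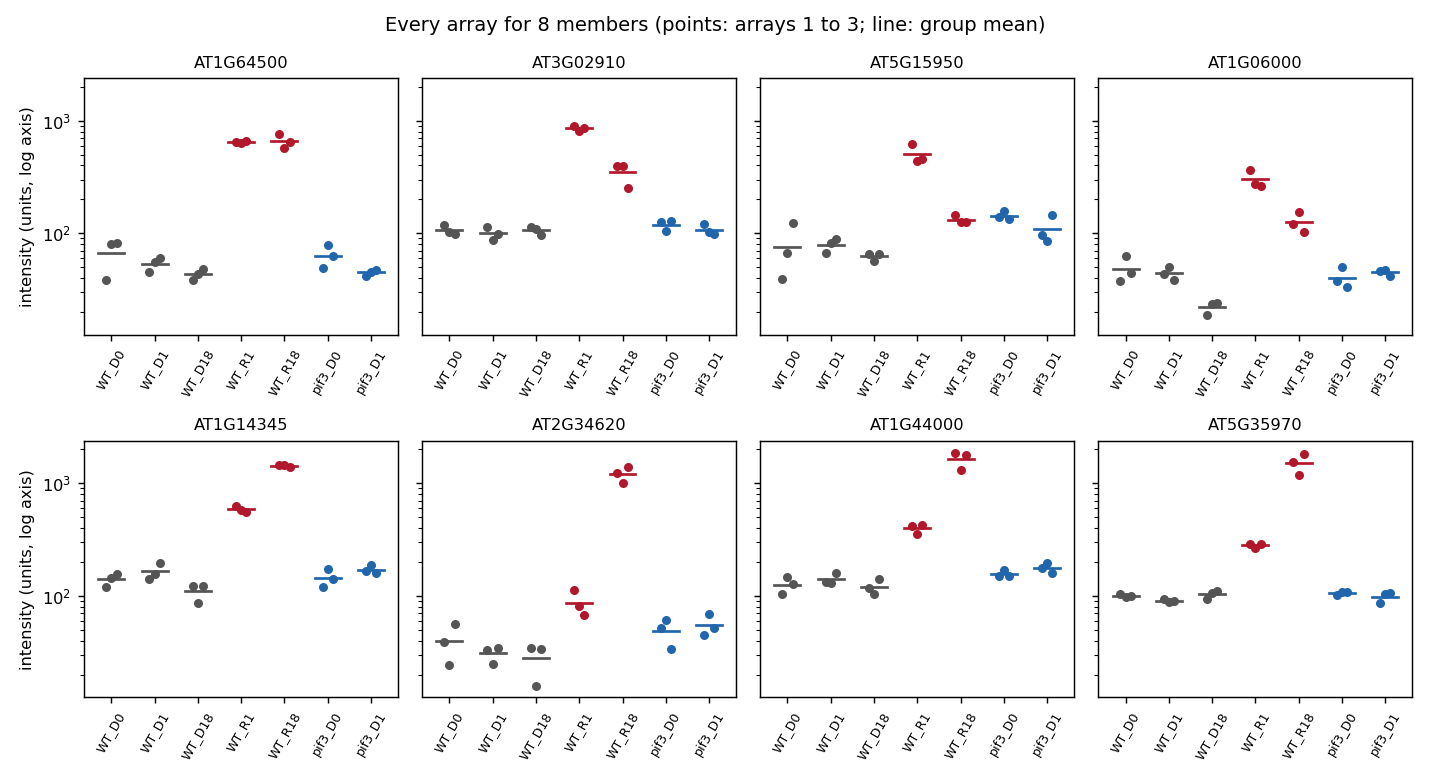
Intensity of 8 members in each of the 21 arrays (log axis, points are the 3 arrays of a group, lines are group means; grey wild-type darkness, red wild type in red light, blue pif3 in darkness). AT1G64500 keeps its 1 h level at 18 h, AT3G02910, AT5G15950 and AT1G06000 are lower at 18 h than at 1 h, and AT1G14345, AT2G34620, AT1G44000 and AT5G35970 are higher.

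Among the 46 members that went on to a higher level, AT2G34620 had the widest step. It lay at 33.4, 25.1 and 34.8 units in WT_D1, 113, 81.3 and 67.4 in WT_R1, 34.5, 16 and 33.7 in WT_D18 and 1244, 1004 and 1395 in WT_R18. Its differences from darkness were 1.12 log2 units at 1 h and 4.82 at 18 h, so that most of its course lay between the red light times. AT3G57020 came next, 2.59 log2 units higher at 18 h than at 1 h, with 138, 198 and 235 in WT_R1 and 1296, 1260.0 and 1063 in WT_R18. In darkness it held 139, 88.3 and 85.7 in WT_D0, 57.8, 87.1 and 56.7 in WT_D1 and 101, 118 and 149 in WT_D18. The lowest WT_R1 array therefore lay beside the highest WT_D0 and WT_D18 arrays, and only WT_D1 was clear of it.

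AT1G65230, AT2G34460 and AT5G35970 also had much wider differences at 18 h than at 1 h. AT1G65230 lay at 59.97, 75.7 and 81 in WT_D1, 152, 131 and 146 in WT_R1, 56.2, 33 and 47.6 in WT_D18 and 943, 721 and 1016 in WT_R18 (log2 differences 0.85 and 3.89). AT2G34460 lay at 57.6, 52.7 and 78.7, 178, 109 and 138, 65.4, 42.8 and 55.8 and 851, 641 and 835 in the same order of groups (0.99 and 3.49). In both, replicate 2 of WT_R18 was the lowest of its group yet far above darkness. AT5G35970 varied little at 1 h, with 93.4, 89.2 and 90.9 in WT_D1 and 289, 267 and 288 in WT_R1, and reached 1536, 1177 and 1807 in WT_R18 against 94.5, 106 and 111 in WT_D18 (1.47 and 3.65).

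A further set joined a clear difference at 1 h to a wider one at 18 h. AT3G21670 is listed as NPF6.4 in the gene table, a member of the NRT1/PTR family of nitrate and peptide transporters. It lay at 33.8, 46.6 and 73.3 units in WT_D1, 256, 325 and 315 in WT_R1, 67.9, 57.8 and 41.8 in WT_D18 and 751, 623 and 881 in WT_R18, with log2 differences of 2.26 and 3.42. The other family member among the 94, AT1G59740 (NPF4.3), was level, at 31.9, 42.3 and 34.7 in WT_D1, 93.8, 81.6 and 77.3 in WT_R1, 34.4, 37.5 and 29.7 in WT_D18 and 69.5, 67.2 and 102.9 in WT_R18 (0.94 and 0.93). WT_R18 lay above WT_R1 in every array of NPF6.4, whereas these groups overlapped in NPF4.3.

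AT3G56290 resembled NPF6.4, with 47.6, 40.8 and 54.5 in WT_D1, 287, 249 and 342 in WT_R1, 41.6, 44.6 and 54 in WT_D18 and 652, 473 and 588 in WT_R18 (2.27 and 3.22). AT1G14345 lay at 143, 157 and 198 in WT_D1 and 632, 577 and 555 in WT_R1, then at 122, 87.1 and 122 in WT_D18 and 1442, 1464 and 1392 in WT_R18 (1.74 and 3.53). The WT_R18 arrays of AT1G14345 were close together. AT5G55620 had 70.7, 75.3 and 64 in WT_D1, 308, 304 and 224 in WT_R1, 49, 45.2 and 41.3 in WT_D18 and 613, 705 and 519 in WT_R18 (1.76 and 3.35). All 3 genes had WT_R18 above WT_R1 in every array.

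AT1G44000 lay at 134, 131 and 158 in WT_D1, 421, 353 and 427 in WT_R1, 118, 103.4 and 141 in WT_D18 and 1865, 1304 and 1775 in WT_R18 (1.40 and 3.60). AT4G27700 lay at 124, 114 and 136, 313, 250.3 and 361, 99.8, 77.1 and 108 and 1199, 1001 and 1250.1 in those groups (1.19 and 3.40). In both genes WT_R1 lay above every dark array of these groups and below every WT_R18 array, and replicate 2 was again the lowest of WT_R1 and of WT_R18. AT4G18810 was near the offset in darkness, at 13, 18.4 and 35.4 in WT_D1 and 23.1, 11 and 20.8 in WT_D18, and reached 83, 83.7 and 70.3 in WT_R1 and 402, 302 and 409 in WT_R18 (1.35 and 3.50).

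The 8 members with the highest WT_R1 intensities, an order of probe set signals and not of transcript levels, had log2 differences at 1 h of 0.76 to 1.18, apart from the larger ones of AT1G13930, AT5G47610 and AT3G02910. AT4G16980 lay at 1796, 2289 and 2006 in WT_D1, 3574, 3769.8 and 3936 in WT_R1, 2131, 2352 and 1918 in WT_D18 and 4369.6, 4528 and 4228 in WT_R18 (0.89 and 1.03). It is the only member with another probe set, which gave 0.42 and 0.24 and so would not have passed the rule. AT1G68440 was level, with 1010.4, 912 and 905 in WT_D1, 1594, 1906 and 1638 in WT_R1, 934, 1118 and 976 in WT_D18 and 1979, 1887 and 1876 in WT_R18 (0.85 and 0.92).

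AT5G08050, AT3G47070 and AT1G50020 of these 8 were higher again at 18 h. AT5G08050 lay at 383, 353 and 451 in WT_D1, 934, 703 and 909 in WT_R1, 297, 220.1 and 293 in WT_D18 and 2138, 1783 and 2249 in WT_R18 (1.07 and 2.86). AT3G47070 lay at 468, 402 and 523, 894, 697 and 795, 387, 279 and 371 and 2635, 2232 and 2787 in the same order (0.76 and 2.83). Without WT_R1 replicate 1 its difference at 1 h was 0.67, under the limit, whereas its 18 h groups were far apart. AT1G50020 lay at 327, 345 and 332 in WT_D1, 774, 806 and 755 in WT_R1, 377, 435 and 404 in WT_D18 and 1345, 1156 and 1350.2 in WT_R18 (1.18 and 1.63).

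Some members rest on few arrays or on the dark level at 18 h. AT5G48540 lay at 113, 597 and 185 in WT_R1, where replicate 2 alone was high, at 71.8, 227 and 75.4 in WT_D0 and at 78.1, 222 and 113 in WT_D18, again with replicate 2 high. Its WT_D1 arrays held 67.2, 64.9 and 63 and its WT_R18 arrays 252, 208 and 577, and limma called it at neither red light time. Replicate 2 of WT_R1 was also high in AT1G18980 (74.9, 229 and 78.8) and AT1G33600 (107, 244 and 102). Without that array the 1 h difference of AT1G33600 was 0.43. Limma called AT1G18980 at both red light times and AT1G33600 only at 18 h. In 5 members the dark mean moved by at least 0.7 log2 units from WT_D1 to WT_D18. It was higher at 18 h in AT5G48540 (0.81) and AT3G57020 (0.74), and lower in AT1G48100 (-0.74), AT4G28740 (-0.81) and AT1G26220 (-1.22). AT1G26220 went from 20.1, 26.6 and 22.7 in WT_D1 to 2.33, -8.78 and -1.05 in WT_D18, and from 72.6, 29.9 and 48.7 in WT_R1 to 243, 169.5 and 219.6 in WT_R18. Its difference at 18 h was 3.75 against WT_D18 and 2.52 against WT_D1. AT2G20560, AT1G48100, AT4G28740 and AT1G26220 were the 4 members with a WT_D1 or WT_D18 mean under the offset, and over the offsets and scalings tried the 18 h difference of AT1G26220 ran from 2.08 to 7.13.

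Across the members the SD between the arrays of a group was 10.6% of the mean in WT_R1 (median, range 1.76% to 87.4%) and 15.95% in WT_R18 (0.427% to 58.3%). Replicate 2 of WT_R18 was the lowest of its group in 65 of the 94 members, and their median log2 level was 8.29 in that array against 8.62 and 8.79 in the others. Over all genes the medians of the 3 arrays were 5.99, 5.99 and 5.98. In WT_R1 replicate 2 was the lowest in 47 members, but their median log2 level was the highest in that array, 7.86 against 7.81 and 7.85.

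The first dark time gave similar differences. WT_D0, which the rule did not use, had a median difference of 1.07 log2 units from WT_R1 over the members, and 81 of 94 had at least 0.7. WT_R1 lay above WT_D0 in every array for 88 members, against 7.93% of all probe sets, and WT_R18 was at least 0.7 above WT_D0 in 91. Since WT_R1 was used by the rule, these are descriptions. AT5G48540, AT3G57020, AT2G36630, AT1G33600, AT1G28600 and AT1G26220 were the 6 whose WT_R1 and WT_D0 arrays overlapped. The median from WT_D0 to WT_D1 was -0.02 and from WT_D1 to WT_D18 -0.05 over the members.

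The question whether these genes already stood higher in the dark mutant can be tested, as neither pif3_D0 nor WT_D0 entered the rule. None of the 94 was called in pif3_D0 against WT_D0 (limma, adjusted p under 0.05 over 22746 probe sets), where 67 probe sets, or 0.295%, were called (0.224% higher and 0.0703% lower). The number called rested on single arrays: it was 25, 258 and 18 without pif3_D0 replicate 1, 2 and 3. It held 1 member, called higher, without pif3_D0 replicate 2 and 1 without WT_D0 replicate 3. At an unadjusted p under 0.05, 13 members were higher and 4 lower, beside 7.02% and 5.03% of all probe sets. pif3_D0 lay above WT_D0 in every array for 13 members and below it for 3, against 6.81% and 5.52% of all probe sets. The members' median difference was 0.07 log2 units, with values from -0.59 (AT5G48540) to 0.89 (AT5G15950), and 58 of the 94 means were higher in the mutant and 1 was equal. On the deposited scale, without scaling between arrays, the median turned to -0.12 and 26 means were higher, where the median over all genes was -0.15.

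**Figure D4:**
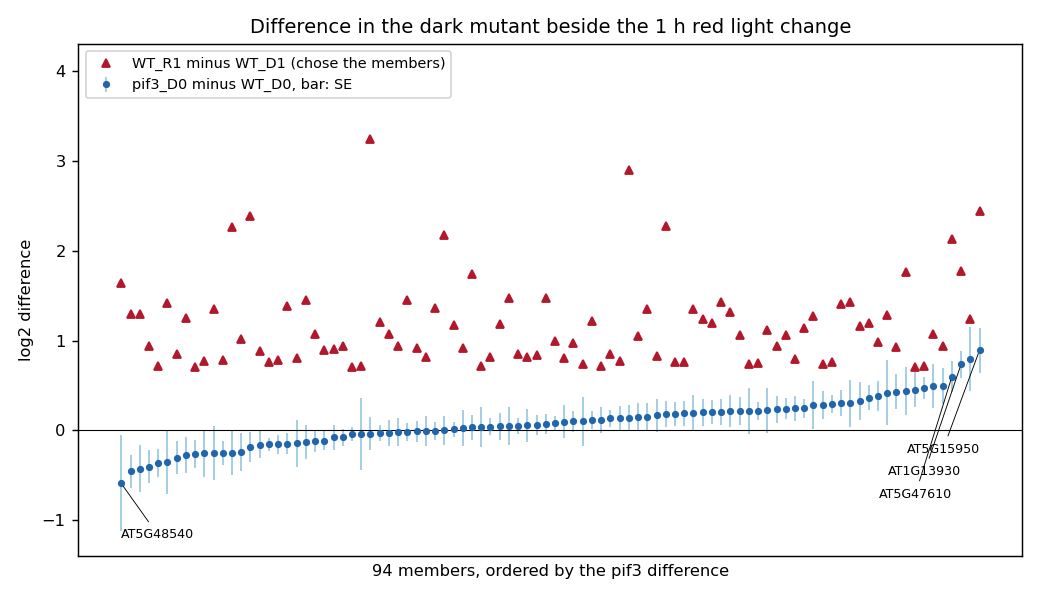
Log2 difference between the dark mutant and dark wild type (pif3_D0 minus WT_D0, blue points with standard error, groups of 3 arrays) for the 94 members in ascending order, beside each member's 1 h red light difference (WT_R1 minus WT_D1, red triangles). The mutant differences run from -0.59 to 0.89 around 0, and every triangle lies at 0.70 or above by the choice of members.

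AT1G13930 came nearest to the threshold. It lay at 359, 370.1 and 394 units in WT_D0 and at 639, 533 and 747 in pif3_D0, without overlap, a difference of 0.74 log2 units (SE 0.15, limma adjusted p = 0.051). In the mutant 1 h later it lay at 424, 391 and 593, beside 331, 356 and 331 in WT_D1. Both mutant groups were thus above the wild type of the same time in every array, and far under the WT_R1 level of 1195 ± 51.1 (SD, n = 3). The rule used WT_D1 and WT_R1, so the comparisons with these groups are descriptions. Against WT_D0, which the rule did not use, the pif3_D1 arrays overlapped. The limma adjusted p of AT1G13930 in pif3_D0 against WT_D0 ran from 0.021 to 0.96 over 14 other settings. It was past the threshold in 3 of them. Without pif3_D0 replicate 2 it was 0.021, with only brighter probe sets 0.027, and with an offset of 64 it was 0.0499.

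AT5G15950 had the widest difference, 0.89 log2 units (SE 0.25, limma adjusted p = 0.14). It lay at 39.1, 66.5 and 122 in WT_D0 and at 138, 159 and 133 in pif3_D0, so that the groups did not overlap although the wild-type arrays were scattered. Without WT_D0 replicate 3, the highest of its group, the adjusted p was 0.027. In pif3_D1 the gene held 96.9, 85.2 and 146, which overlapped with 67.1, 82.6 and 88.2 in WT_D1. AT5G47610 lay at 188, 123 and 196 in WT_D0 and 292, 206 and 288 in pif3_D0 (0.60, SE 0.17, limma adjusted p = 0.16), and AT2G42690 at 221, 282 and 295 and 355, 331 and 438 (0.47, SE 0.12, limma adjusted p = 0.12). In both the mutant arrays lay above every wild-type array.

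AT1G64500 lay at 38.2, 81.1 and 82.2 in WT_D0 and 49.2, 78 and 62.6 in pif3_D0, and AT3G02910 at 118, 102 and 99.1 and 125, 104 and 128. These groups overlapped in each gene, with log2 differences of -0.03 and 0.14. WT_R1 lay above all 6 dark mutant arrays for 87 of the 94 members, against 5.68% of all probe sets, a count in which the WT_R1 level was fixed by the choice. The 25S rRNA control was at 4289 to 5410 units in the 6 mutant arrays and low in WT_D0 replicate 1. With it as a covariate 61 probe sets and 0 members were called.

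Neither did a further 1 h of darkness give a call in the mutant. In pif3_D1 against pif3_D0, 0 of 94 members were called by limma, beside 42 probe sets or 0.185%. Without 1 of the 6 arrays of these groups 1 to 163 probe sets were called, 163 of them without pif3_D0 replicate 2 and at most 10 without any of the others, and no member. At an unadjusted p under 0.05, 5 members were higher and 10 lower, against 5.9% and 7.28% of all probe sets, and the median difference was -0.01. The smallest p belonged to AT1G62030, which lay at 31.8, 35.5 and 31.5 in pif3_D0 and 14.7, 1.22 and 23.7 in pif3_D1 (-0.82, SE 0.21, limma adjusted p = 0.11). The pif3_D1 arrays of this gene lay near or under the offset. For pif3_D1 beside WT_D1, a group that the rule used, the median of the members' differences was 0.04.

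Genes chosen by the same limits at only 1 of the red light times give a reference for the mutant difference. In the 76 genes past the limit at 1 h and not at 18 h, pif3_D0 was above WT_D0 in 26.3%, with a median difference of -0.21. In the 590 genes past it at 18 h and not at 1 h (with a WT_R18 level of at least 6), the share was 66.4% and the median 0.07, and over all genes 49.5% and 0. For the 94 members the share was 61.7%. Without scaling between arrays the shares were 7.89%, 23.2%, 20.5% and 27.7% in that order, with the lowest again in the genes past the limit at 1 h only. In the main processing 650 of all 13356 genes, taken with no level limit, were equal in both groups. In the 76, 590 and 94 genes 0, 1 and 1 were equal. Such ties lower the share over all genes. At a limma unadjusted p under 0.05, 4 of the 76, 68 of the 590 and 13 of the 94 genes were higher in pif3_D0. In the same sets 2, 8 and 4 genes were lower. Over all 13356 genes 923 were higher and 604 lower. The differences between these sets were not tested.

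By the gene table of assembly TAIR10.1, used here only for names, order and length, all 94 members are protein-coding genes of the nuclear chromosomes. Chromosome 1 holds 38 of them, 40.4%, against 26.0% of the genes whose symbol is only the locus and 25.7% of all genes measured. Chromosome 2 holds 12, chromosome 3 holds 14, chromosome 4 holds 12 and chromosome 5 holds 18. These shares are a description and were not tested. AT1G62030 and AT1G62050 have 2 genes between them, and AT3G21670 (NPF6.4) and AT3G21690 have 1, and no other members lie as close. AT3G21690 lay at 216, 227 and 206 in WT_D1, 431, 458 and 385 in WT_R1, 217, 199 and 214 in WT_D18 and 497, 428 and 596 in WT_R18 (0.92 and 1.20), a level course unlike that of its neighbour. The median gene length was 1870 bases in the members and 2103 in all matched genes.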

How the data were processed

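For each array the authors deposited 22810 probe set intensities, which were read as linear from their range. How the probes were summarised, and whether arrays were scaled, is not given in the sources used here. In each array 9.78% to 12.1% of the values lay below 0, and array medians ran from 36.13 to 102.9. The number of arrays, 3 per group, limits the precision.

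All 22810 probe sets entered a quantile normalization of the linear values. Negative values became 0, and levels are log2 of the value plus an offset of 16. The 64 controls were then set aside, which left 22746 probe sets. A model of the 7 group means over the 21 arrays was fitted with lmFit and eBayes of limma 3.58.1 (R 4.3.3). Calls are at a two-sided Benjamini-Hochberg adjusted p under 0.05 over the 22746 probe sets. The fit and its calls were tested on simulated log2 values with known changes in pif3_D0. These changes were put only into bright probe sets, so recovery in dim ones was not examined. The normalization, the offset and the choice of members were not part of that test. Only the contrasts without a group of the rule (pif3_D0 against WT_D0 and pif3_D1 against pif3_D0) were read as tests of the members.

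Probe sets were named through the platform annotation and a TAIR10.1 gene table: 13513 named a single gene, while 503 with several genes and 8730 unlisted ones were not named. A gene with several probe sets (146 genes, 1 of them a member) was represented by the brightest over all arrays. Neither table describes gene functions, so the planned grouping by function was not made, and promoter motifs were not searched.

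Members given with every array of the groups in question were the 12 greatest differences at 1 h and the 12 at 18 h, the 8 highest WT_R1 means, the 5 greatest rises and 5 greatest falls between the red light times, members called in a pif3 contrast, and 3 genes on each side of each limit by value. AT2G46420, AT1G59740, AT3G21690, AT1G62030, AT2G42690 and the other genes outside these lists were named after their values were seen. The members and lists were chosen with earlier results of these data known. Alternatives were other scalings and offsets, a filter on dim probe sets, fits of the compared groups only, a replicate block, the 25S rRNA signal as a covariate and leaving out each array in turn.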

Additional observations from a re-analysis of the deposited data

How the results depend on the processing

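The number of members was 94, and 41 with limits of 1 in place of 0.7, 44 with an offset of 64, and 83 to 105 with no scaling, median scaling or an offset of 1. Without 1 array of the groups of the rule it ran from 90 to 100, with at least 85 of the 94 among them. The median difference at 1 h, 1.06, was 0.98 with no scaling, 1.02 with median scaling, 1.15 with an offset of 1 and 0.80 with an offset of 64. At 18 h it moved from 1.74 to 1.36 with an offset of 64. Every member stayed higher in red light at both times under the scalings and offsets tried, by at least 0.38 log2 units at 1 h and 0.29 at 18 h. Of the 6 members lower at 18 h than at 1 h, 3 passed that limit with an offset of 64. The alternatives for this course and for the count of members higher in the mutant were chosen after seeing the data.

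In pif3_D0 against WT_D0, 67 probe sets were called, and 1 with no scaling, 109 with median scaling and 0 in a fit of only the 2 groups compared. Without 1 array of these groups the count ran from 18 to 258. Members called higher numbered 0, and 1 with an offset of 64 (AT1G13930), 1 with only probe sets of a mean log2 level of at least 6 (AT1G13930) and 0 to 1 without 1 array. The median difference of the members, 0.07, was -0.12 with no scaling, and the number of members higher in the mutant, 58, was then 26. In pif3_D1 against pif3_D0, 42 probe sets were called, and 0 with no scaling, 183 with median scaling, 22 with the filter on dim probe sets, 0 in a fit of only the 2 groups and 1 to 163 without 1 array. Array medians of the deposited values differ (36.13 to 102.9), and the causes of these shifts were not tested.

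Same-numbered arrays correlated in their deviations at 0.071, 0.21 and -0.015 between WT_D0 and pif3_D0 and at -0.057, 0.22 and 0.09 between pif3_D0 and pif3_D1, so the numbers were not taken to pair the samples. With the replicate block 77 and 53 probe sets and 0 members were called.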
